A study of Bos taurus with 48 samples.

Results

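MT1A (ENSBTAG00000038067) is a bovine metallothionein gene, and it is described here through its level in the oocyte and in the inner and outer cumulus cells of single cumulus-oocyte complexes (COCs). It is 1 of the 24616 genes in the deposited FPKM table and was picked by its identifier, because earlier results of these data had shown a wide spread of its level between outer cumulus samples. Its levels, that spread and the agreement between the samples of a COC are therefore given as a description, with no test.

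Metallothioneins are small, cysteine-rich proteins that bind zinc and copper and also take up cadmium. Their genes are switched on by metals through the zinc-sensing factor MTF1, by glucocorticoids and by oxidative stress, and they lie next to each other in one cluster. Zinc matters in the ovary because the oocyte takes up zinc during maturation and releases part of it at fertilization, and cumulus cells surround the oocyte and exchange small molecules with it.

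The COCs were aspirated from follicles of Bos taurus ovaries collected after slaughter, and those with an even oocyte cytoplasm and several cumulus layers were kept. Trypsin and pipetting first took off the outer layers (outerCC), then the layers left on the oocyte (innerCC), and the denuded oocyte was collected last. The 16 COCs gave 1 library of each kind, 48 libraries in all, amplified from polyA+ RNA by SMART-seq2. No culture or treatment of the COCs is described. Cumulus RNA was extracted before amplification whereas oocytes were lysed and amplified directly, so the cell type and this step cannot be told apart in comparisons with oocytes, and how the COCs fall on animals is not given in the labels.

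The values are FPKM, fragment numbers scaled to transcript length and to the size of the library, so levels of different genes can be set side by side per length. The files hold no fragment counts, and the depth behind a value is unknown. In these bulk samples fewer cells and less RNA per cell cannot be told apart. Genes over 0.5 FPKM numbered 8525 to 11340 in oocytes and 9054 to 11851 in outerCCs. The innerCC libraries of COCs 176 to 184 stood apart with 648 to 2639 genes, against 5876 to 10295 in those of COCs 185 to 192, so a value of 0 there says only that the gene is listed at 0. Some cumulus libraries held oocyte genes, above all the outerCC of COC 191. There 8 oocyte markers, GDF9 and BMP15 among them, summed to 489 FPKM, against a median of 1.59 over the outerCCs. The same markers summed to 66.1 FPKM in the outerCC of COC 190. In the innerCCs of COCs 190 and 189 the sums were 134.9 and 29.1 FPKM, against an innerCC median of 3.33. Some of the values that rest on the innerCCs of COCs 176 to 184 or on the outerCC of COC 191 are given with and without them. The ranking by likeness to MT1A, the spread, the shares and the levels of listed genes always include the outerCC of COC 191. The 4 matched markers of cumulus or granulosa cells (INHA, INHBA, INHBB, CYP19A1) summed to 189 to 4809 FPKM in outerCCs and to 0 to 162 FPKM in oocytes, and the 8 oocyte markers summed to 1034 to 2596 FPKM in oocytes.

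MT1A was high in the outer cumulus layer, lower and often at 0 in the inner layer, and at 0 in most oocytes. In the outerCC it was above 0 in 16 of 16 libraries, from 2.24 to 1007 FPKM with a median of 37.97 FPKM (mean 101 ± 243.7, SD, n = 16). In the innerCC it was listed at 0 in 10 of 16 libraries and reached 27.4 FPKM in the others. In oocytes it was listed at 0 in 13 of 16 and reached 3.36 FPKM. The ranges of outerCC and innerCC overlapped, and so did those of outerCC and oocyte, because the lowest outerCC library, that of COC 188, lay below the highest oocyte library, that of COC 192. In the filtered table of the study MT1A kept its values in the 16 outerCC libraries and was set to 0 in the 32 other libraries, since a gene had to pass 0.5 FPKM in 8 libraries of a kind.

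**Figure D1:**
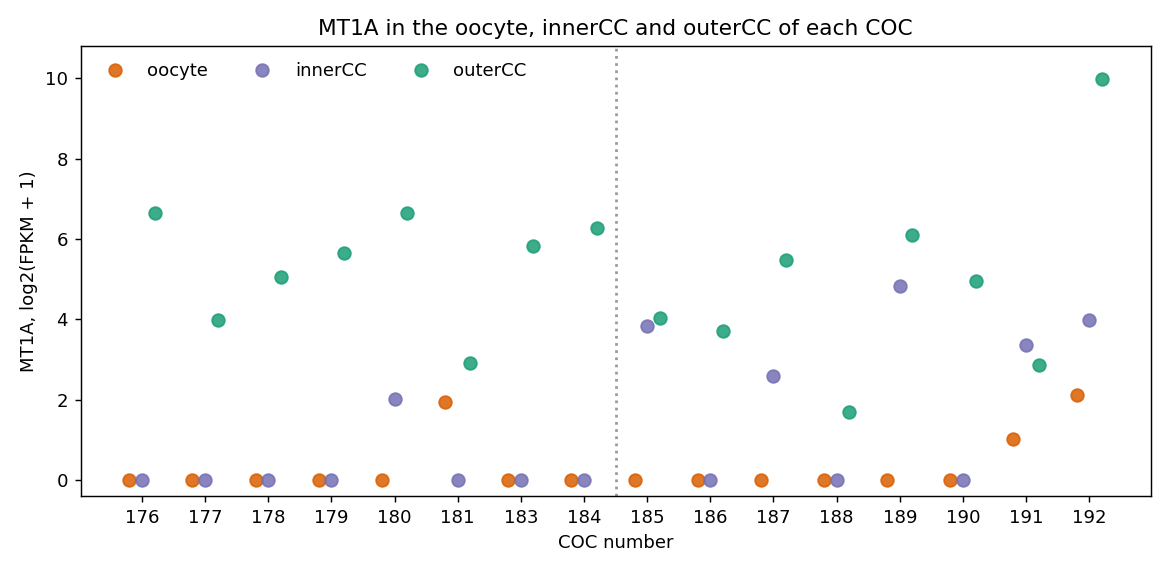
MT1A level as log2(FPKM + 1) on the vertical axis for each COC on the horizontal axis, with 1 point per library for the oocyte, innerCC and outerCC. The dotted line parts COCs 176 to 184, whose innerCC libraries held few genes, from COCs 185 to 192. The outerCC point is the highest of its COC in every COC except COC 191, and the outerCC of COC 192 stands above all other libraries.

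Within COCs the outerCC was most often the highest sample, while innerCC and oocyte had no steady order. The innerCC exceeded the oocyte in 6 of 16 COCs, the oocyte exceeded the innerCC in 1, and both were listed at 0 in 9. The outerCC was above the oocyte in 16 of 16 COCs and above the innerCC in 15 of 16. The exception was COC 191, with 9.26 FPKM in the innerCC and 6.27 FPKM in the outerCC, the outerCC library with the highest sum of oocyte markers. Among COCs 185 to 192, whose innerCC libraries were richer, the outerCC was the higher in 7 of 8, and the median difference between outerCC and innerCC was 2.30 on the log2(FPKM + 1) scale. It was 5.35 in COCs 176 to 184, where MT1A was listed at 0 in 7 of 8 innerCC libraries. MT1E (ENSBTAG00000001595), a related gene at 41.2 FPKM or more in every outerCC, was also listed at 0 in 7 of those 8 innerCC libraries, so the zeros of MT1A there came with zeros of a more abundant gene. Their part in the difference was not tested.

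The innerCC libraries with MT1A above 0 were those of COCs 180 (3.02 FPKM), 185 (13.3 FPKM), 187 (5.01 FPKM), 189 (27.4 FPKM), 191 (9.26 FPKM) and 192 (14.7 FPKM). The richer set therefore held all but 1 of them, and the median over COCs 185 to 192 was 7.14 FPKM, with 3 of 8 listed at 0. The outerCC of these COCs exceeded the innerCC by very different factors. The ratio was 1.16 in COC 185, 2.44 in COC 189, 8.73 in COC 187 and 68.5 in COC 192. The oocytes with MT1A above 0 were those of COCs 181 (2.87 FPKM), 191 (1.03 FPKM) and 192 (3.36 FPKM). Cumulus markers summed to 23.1 FPKM in the oocyte of COC 181 and to 162 FPKM in that of COC 191, which were the highest of the oocytes, but to 0.863 FPKM in that of COC 192. The part of cumulus RNA in these values was not tested.

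The samples of a COC were then compared across COCs. Over 16 COCs, Spearman's rho of MT1A was 0.26 between outerCC and innerCC, -0.09 between outerCC and oocyte and 0.33 between innerCC and oocyte. Over COCs 185 to 192 rho between outerCC and innerCC was 0.63 (Pearson's r 0.51 on log2(FPKM + 1), n = 8). These are descriptions, many of the points are zeros, and the 3 libraries of a COC share its collection.

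The outerCC libraries spanned a wide, continuous range with 1 library far above it. The highest values were 1007 FPKM in COC 192, 99.5 FPKM in COC 180, 98.7 FPKM in COC 176, 76.7 FPKM in COC 184 and 67.0 FPKM in COC 189. The middle values were 55.4 FPKM in COC 183, 49.0 FPKM in COC 179, 43.8 FPKM in COC 187, 32.2 FPKM in COC 178 and 30.0 FPKM in COC 190. The lowest were 15.4 FPKM in COC 185, 14.7 FPKM in COC 177, 12.1 FPKM in COC 186, 6.59 FPKM in COC 181, 6.27 FPKM in COC 191 and 2.24 FPKM in COC 188. Neighbours in this order differed by a factor of at most 2.80, except that COC 192 was 10.1 times the next. With 1 library per COC and no repeat of any, the technical error of a single value is unknown, and the order of close neighbours cannot be relied on. COC 192 held 62.3% of the MT1A FPKM summed over the 16 libraries. Without it the mean was 40.6 ± 33.0 FPKM (SD, n = 15) and the highest library was 44.4 times the lowest, against 449.7 times with it.

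Few of the genes present in every outerCC library varied as much. Genes at 0.5 FPKM or less in any outerCC were not ranked, which leaves out genes that fell to near 0. Among the 7168 genes above 0.5 FPKM in every outerCC library, the SD of log2(FPKM + 1) was 1.96 for MT1A and 0.71 for the median gene. Only 1 gene, ENSBTAG00000031503 (SD 2.07), had a higher value. Without COC 192 the SD of MT1A was 1.52, and 9 genes lay above it. The coefficient of variation (SD over mean of FPKM) depended more on COC 192: it was 2.41 with 8 genes above it, and 0.812 with 385 genes above it when COC 192 was left out (median gene 0.475). The MT1A level was not ordered by the richness of the library. Spearman's rho over the 16 outerCCs was 0.17 with the number of genes over 0.5 FPKM and 0.07 with the FPKM sum.

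The table held 4 further genes whose names in the study's gene lists mark them as metallothioneins. These are MT1E (ENSBTAG00000001595), a second identifier also named MT1E (ENSBTAG00000038706), MT3 (ENSBTAG00000016886), known in mammals as a brain-enriched form, and MT4 (ENSBTAG00000015084), known from stratified epithelia. The RefSeq table, made on another assembly, places MT1A, 2 unnamed metallothionein loci, MT2A, MT3 and MT4 in a row between CES1 and BBS2, and lists MT1E as another name of MT1A and of both unnamed loci. Which locus each MT1E identifier stands for is thus uncertain. MT2A was not analysed here. Metallothionein genes are close in sequence, and since only uniquely placed reads were kept, reads of shared stretches could be lost or split between these genes.

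The matched genes divided between the cell types: the MT1 genes among them were cumulus genes, and MT3 and MT4 were oocyte genes. MT1E (ENSBTAG00000001595) was at 41.2 to 1471 FPKM in the 16 outerCCs (median 205 FPKM) and at 0 in 12 of 16 oocytes, with at most 9.16 FPKM in the others, so the groups did not overlap. It was lower in oocytes than in outerCCs by limma on log2(FPKM + 1), with a difference of -7.26 ± 0.42 (SE, adjusted p = 7.6e-18). For scale, 43.4% of the 12427 genes tested were called higher and 34.3% lower in oocytes at an FDR under 0.01, which is the background of each call. Scaling each library to its 75th percentile moved the median difference of all genes from 0.25 to -0.29 on the log2 scale and the calls from 5394 higher and 4259 lower to 4374 higher and 5597 lower, and no metallothionein changed direction. MT1A is on the same side, but its values chose it and it was not tested.

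MT3 gave the mirror image. It was at 88.1 to 586 FPKM in oocytes (median 319 FPKM) and listed at 0 in 14 of 16 outerCCs. Its outerCC values above 0 were 74.9 FPKM in COC 191, the outerCC with the highest sum of oocyte markers, and 1.16 FPKM in COC 192. In innerCCs MT3 was above 0 in COC 189 (4.48 FPKM) and COC 190 (8.83 FPKM). It was higher in oocytes than in outerCCs by 7.83 ± 0.40 (limma, adjusted p = 3.2e-19). MT4 was at 2.87 to 35.0 FPKM in oocytes (median 16.4 FPKM), at 7.52 FPKM in the outerCC of COC 191 and at 0 in every other cumulus library. It was higher in oocytes by 3.58 ± 0.30 (limma, adjusted p = 2.3e-13). Without COC 191 the outerCC mean of MT3 fell from 4.75 to 0.0772 FPKM and that of MT4 to 0. MT3 and MT4 passed the detection filter through the oocyte alone, and MT1E (ENSBTAG00000001595) through the cumulus samples, so a difference on that side was built into their being tested.

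**Figure D2:**
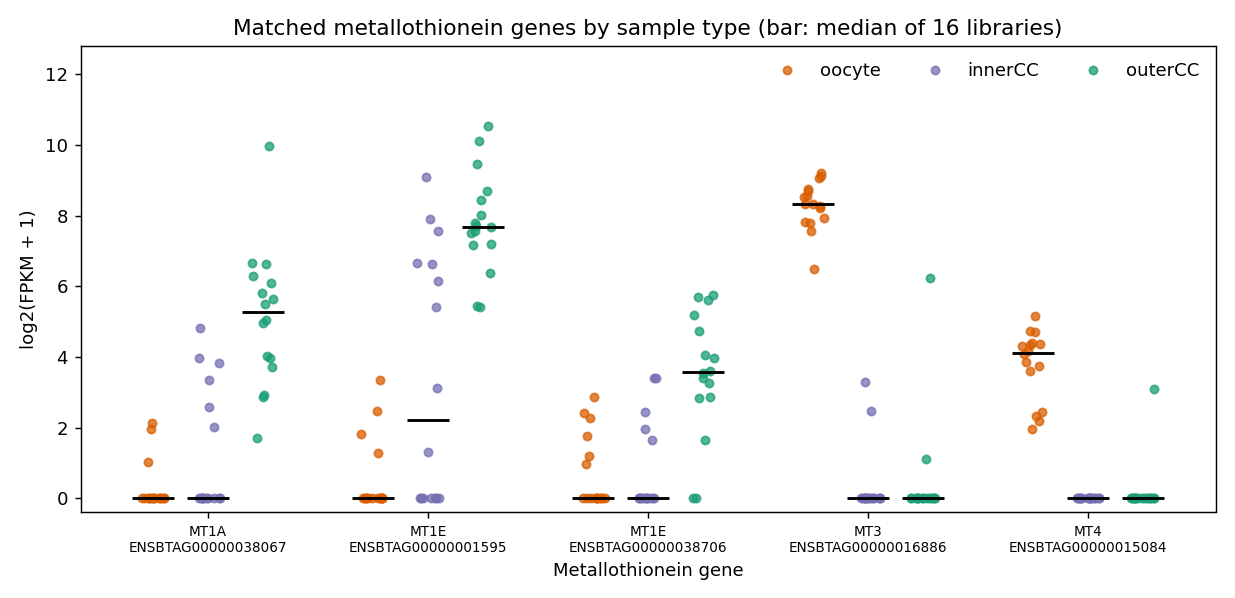
Level of the 5 matched metallothionein genes as log2(FPKM + 1) on the vertical axis, by gene and sample type on the horizontal axis. Each point is 1 library and each bar the median of 16 libraries. MT1A and both MT1E genes are highest in outerCCs, and MT3 and MT4 in oocytes, where their medians are 319 and 16.4 FPKM.

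The second MT1E gene (ENSBTAG00000038706) was the weakest of the cumulus forms. It was above 0 in 14 of 16 outerCCs, up to 52.5 FPKM with a median of 10.98 FPKM, and reached 6.24 FPKM in oocytes, so the groups overlapped. Its difference between oocytes and outerCCs was -2.79 ± 0.48 on the log2 scale (limma, adjusted p = 2.2e-06). In COCs 185 to 192 alone the difference was -2.29 and missed the FDR (limma, adjusted p = 0.012), with 27.8% of genes called lower. It passed the detection filter through the outerCC alone.

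Between the cumulus layers no difference of the related genes passed the FDR in the richer libraries. That fit did not pair the layers of a COC, and a missed FDR does not show that a difference was absent. Within COCs 185 to 192 the outerCC was the higher in 6 of 8 for each of the 2 MT1E genes. The innerCC was the higher in 2 for ENSBTAG00000001595 and in 0 for ENSBTAG00000038706, which was at 0 in both layers of the other 2. Over all 16 COCs MT1E (ENSBTAG00000001595) and ENSBTAG00000038706 were lower in innerCCs, with differences from outerCCs of -4.45 and -2.71 (limma, adjusted p = 0.0001 and 6.8e-05), but 77.4% of all genes tested were called lower there. In COCs 185 to 192, where 1.53% of genes were called lower, the differences were -1.34 ± 0.86 (limma, adjusted p = 0.21) and -1.98 ± 0.95 (limma, adjusted p = 0.11). With the number of genes as a covariate they were -0.33 and -2.42, neither past the FDR, and 0.0322% of genes were called lower. MT1E (ENSBTAG00000001595) was present in 8 of 8 innerCC libraries of that set, from 7.69 to 543 FPKM with a median of 98.9 FPKM, where MT1A had a median of 7.14 FPKM. Its difference between oocytes and innerCCs was -2.81 over all COCs (limma, adjusted p = 0.0053) and -6.02 in COCs 185 to 192 (limma, adjusted p = 9.4e-08), where 14.1% of genes were called lower. Over all COCs this call was lost when any 1 of COCs 185 to 190 was left out, with differences of -2.61 to -2.39 (limma, adjusted p = 0.01 to 0.014). MT3 and MT4 were higher in oocytes than in innerCCs by 7.93 and 3.77 (limma, adjusted p = 1.1e-21 and 4.1e-15), over all COCs, where 63.2% of genes were called higher and 4.53% lower. The 3 comparisons share samples pairwise, so their calls are not independent.

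MT1A was a minor part of the FPKM summed over the 5 matched metallothionein genes in most outerCCs. It made up 0.973% to 72.5% of that sum, with a median of 17.7%. No gene named MT2A was among the 5, so these are not shares of all metallothionein RNA. MT1E (ENSBTAG00000001595) was the highest of the 5 in 14 of 16 outerCCs, at a median of 4.23 times MT1A and a range from 0.344 to 97.5 times. MT1A was the highest in COC 192 alone, at 72.5%, and MT3 was the highest in COC 191, at 57.3%. In the innerCCs of COCs 185 to 192, MT1E (ENSBTAG00000001595) was the highest in 7 of 8 and MT1A in COC 192, at 65.7%. In oocytes MT3 made up 88.7% to 99.1%. The summed FPKM of the 5 genes had medians of 271 in outerCCs and 337 in oocytes.

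**Figure D3:**
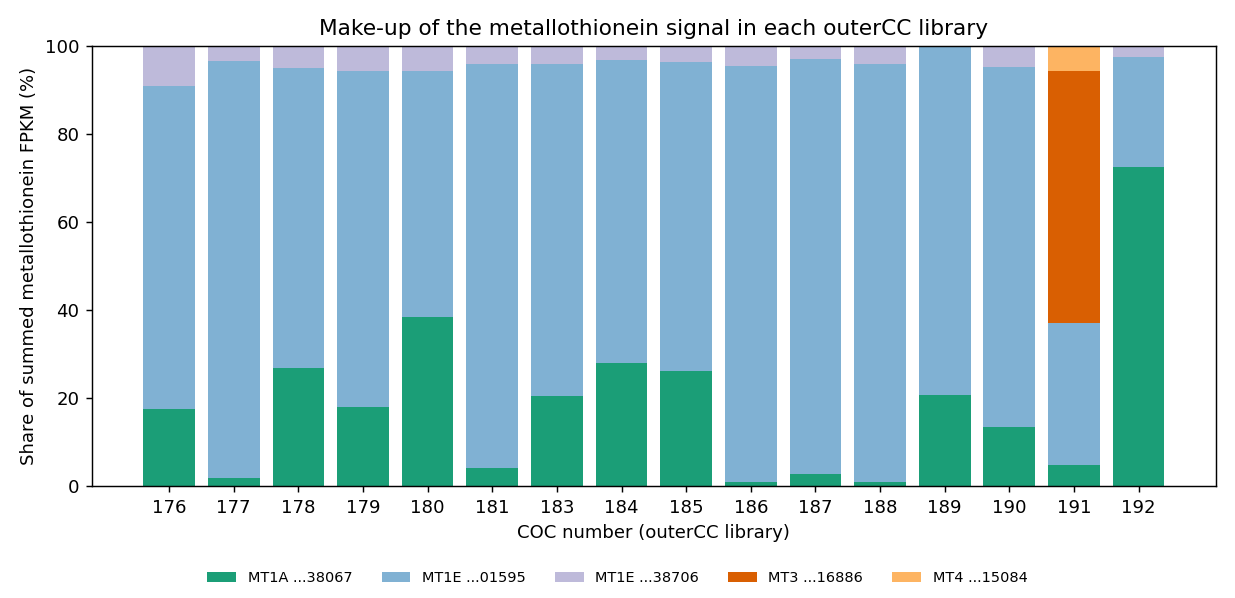
Share of each of the 5 metallothionein genes in their summed FPKM, in percent on the vertical axis, for the outerCC library of each COC on the horizontal axis. Genes are labelled by name and the end of the identifier. The MT1E gene ENSBTAG00000001595 fills most bars, MT1A reaches 72.5% in COC 192, and MT3 reaches 57.3% in COC 191.

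MT1A and the MT1E genes did not rise and fall together across outerCCs. Spearman's rho with MT1A was 0.19 for ENSBTAG00000001595, rank 2648 of 10458 genes, and 0.29 for ENSBTAG00000038706, rank 1366. In COC 187 MT1E (ENSBTAG00000001595) was at its highest, 1471 FPKM, beside 43.8 FPKM of MT1A, and in COC 192 it was at 346 FPKM beside 1007 FPKM. The median rho of all genes was 0.06, and its 95th percentile was 0.40. The slopes of the MT1E genes on MT1A did not pass the FDR (limma, adjusted p = 1.0 for both).

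The genes most like MT1A were ranked by Spearman's rho over the 16 outerCC libraries, which share 1 amplification method and unknown depths. The highest values were 0.87 for ENSBTAG00000047739, 0.85 for ENSBTAG00000023659, 0.82 for ENSBTAG00000005574, 0.82 for ANXA1 (a calcium-dependent phospholipid-binding protein) and 0.81 for MAP3K8 (a kinase that activates MAP kinases), level with ENSBTAG00000006367. Pearson's r on log2(FPKM + 1) was 0.79 to 0.86 for these genes. Without COC 192 their rho was 0.77 to 0.84. They were picked by rho over libraries that include these other outerCCs, so these values are a description and no separate check. Of 32 genes with a rho over 0.7, 21 stayed over it without COC 192. The lowest values were -0.67 for ENSBTAG00000032774, -0.63 for ENSBTAG00000017339, -0.62 for ENSBTAG00000015924, -0.61 for ENSBTAG00000035844 and -0.60 for ENSBTAG00000004908. The last 2 reached only 1.30 and 1.39 FPKM in outerCCs, near the detection cut of 0.5 FPKM. ENSBTAG00000032774 was at 5.35 to 210 FPKM in oocytes, and its highest outerCC values were 58.6 FPKM in COC 186 and 40.9 FPKM in COC 191. The part of oocyte RNA in these values was not tested.

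ANXA1 ran from 0.418 to 37.97 FPKM in outerCCs with a median of 5.27 FPKM, and was listed at 0 in 13 of 16 oocytes. MAP3K8 was low, from 0.130 to 7.97 FPKM in outerCCs with a median of 0.832 FPKM. ENSBTAG00000047739 ran from 8.36 to 247 FPKM in outerCCs with a median of 26.7 FPKM. In each of these genes except ANXA1 the highest outerCC was that of COC 192. ENSBTAG00000023659 ran from 7.55 to 1149 FPKM (median 85.9 FPKM) and ENSBTAG00000005574 from 66.9 to 2217 FPKM (median 226 FPKM), so both were as abundant as the metallothioneins.

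**Figure D4:**
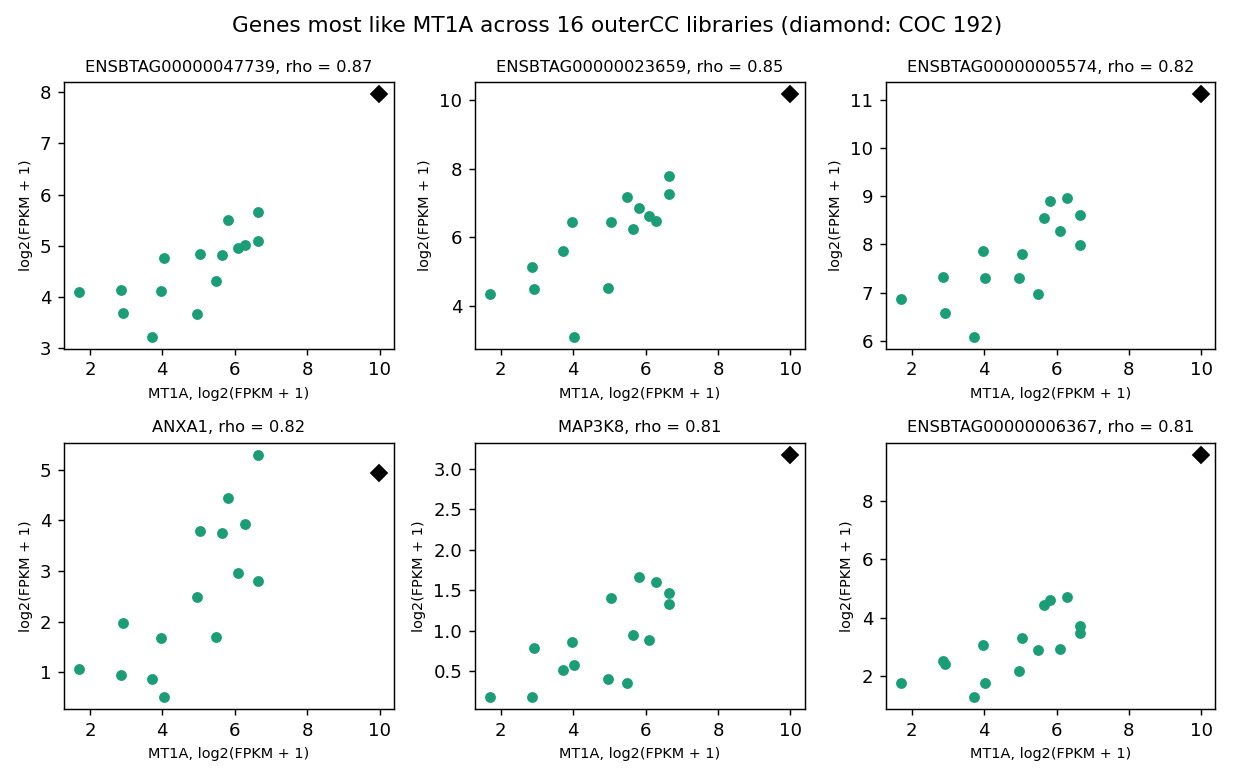
Level of the 6 genes with the highest Spearman's rho with MT1A, as log2(FPKM + 1) on the vertical axes, against MT1A on the horizontal axes, with 1 point per outerCC library. The diamond is COC 192. The points rise with MT1A also among the other 15 libraries, where rho is 0.77 to 0.84.

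In a fit of every gene on MT1A across outerCCs, 8 of 10458 genes (0.0765%) passed an FDR under 0.01 with limma, all with a positive slope. Among them were TIMP1 (an inhibitor of matrix metalloproteinases) and DBNDD2. TIMP1 was at 3.41 to 233 FPKM in outerCCs with a median of 7.81 FPKM, and its slope was 0.59 ± 0.10 log2 units per log2 unit of MT1A (limma, adjusted p = 0.0055). The slope was 0.61 ± 0.09 for DBNDD2 (limma, adjusted p = 0.0029). Also among them were ENSBTAG00000006367, ENSBTAG00000014465, ENSBTAG00000023659, ENSBTAG00000005574 and ENSBTAG00000047739, with slopes of 0.47 to 0.83. ANXA1 (limma, adjusted p = 0.014) and MAP3K8 (limma, adjusted p = 0.047) did not pass. Without COC 192, 0 genes passed with limma, and at an unadjusted p under 0.05 the limma fit gave 88 positive and 39 negative slopes, against 389 and 77 with it. The count was 4 without COC 179, 183 or 185, 5 without COC 177, 181, 184 or 191, and 21 without COC 188. In the innerCCs of COCs 185 to 192, 0 of 9357 genes passed with limma, with 30 positive and 89 negative slopes at an unadjusted p under 0.05. In each of these fits, such slopes of both signs together fell below a share of 0.05 of the genes tested. A share of 0.05 is expected with no association, so these counts show no excess at that cut.

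COC 192 was unusual in more than MT1A. Its outerCC library held the highest value of 1860 of 10459 genes (17.8%), where an equal share is 6.25% and the outerCC of COC 176 held 16.5%. In 46 genes it was 5 or more times the next library, a number passed only by COC 191 (72 genes), while the other outerCCs had 0 to 10. MT1A, at 10.1 times, came after 10 genes in this order. Among genes with a symbol, BAMBI, a pseudoreceptor of the TGF-beta family, was at 139 FPKM in COC 192 (17.6 times the next). PDK4, a kinase that holds back pyruvate dehydrogenase, was at 37.2 FPKM against a median of 1.29 FPKM in the others, and TNFRSF12A, a TNF receptor family member, at 176 FPKM (9.34 times). These genes were singled out after their values were seen.

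Markers of other cell types were set beside this library. The 4 matched fibroblast markers (COL1A1, COL1A2, LUM and PDGFRA) summed to 81.8 FPKM in COC 192, against a median of 14.98 FPKM and a maximum of 89.3 FPKM over the other 15 outerCCs. The maximum was that of COC 177, whose MT1A was 14.7 FPKM, and LUM alone made up 84.6 FPKM of that sum. COL1A1 and PDGFRA had their highest outerCC values in COC 192, at 30.5 and 12.1 FPKM. LUM was at 39.3 FPKM and COL1A2 at 0 in that library. PDGFRA, a growth factor receptor of mesenchymal cells, was alike to MT1A across outerCCs (rho 0.78, and 0.73 without COC 192), but its slope did not pass the FDR (limma, adjusted p = 0.077). COL1A1 and LUM, a collagen chain and a matrix proteoglycan, had rho of -0.05 each. The matched leukocyte markers (CSF1R, CD3E and LCP1, 3 of 8 listed) were at 0 in COC 192. The endothelial ones (VWF, TEK and KDR, 3 of 6) summed to 0.577 FPKM. Both sets were higher in oocytes, with sums of 7.01 to 24.4 and 12.9 to 34.4 FPKM. They were thus not specific to those cell types here, and they do not show whether such cells were present. The cumulus markers summed to 840 FPKM, below the median of 1882 FPKM over the others. No theca or red cell marker was matched, and the part of other cells in the MT1A values was not tested.

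The other genes of metal handling and of the pathways that act on metallothioneins were taken as lists, of which only members with a symbol in the study's gene lists could be used. For metal transport and sensing, 6 of 39 listed genes were matched, and between oocytes and outerCCs 1 was higher and 5 were lower in oocytes (median difference -2.06, all genes 0.25). Counts of this kind are given as a description, since members low in 1 type could pass the filter only through the other. SLC39A12, a zinc importer, was an oocyte gene: it was at 11.5 to 37.4 FPKM in oocytes and at 0 in 13 of 16 outerCCs, with a difference of 4.30 ± 0.19 (limma, adjusted p = 2e-20). SLC39A14, an importer of zinc and iron, was at 7.48 to 50.5 FPKM in outerCCs and 0.219 to 5.60 FPKM in oocytes, a difference of -3.36 ± 0.26 (limma, adjusted p = 1.6e-14). SLC30A2, a zinc exporter to vesicles, and SLC39A11 were lower in oocytes too, with differences of -3.03 and -2.26 (limma, adjusted p = 1.6e-12 and 1.4e-11). SLC39A12 passed the detection filter through the oocyte alone, and SLC30A2 and SLC39A11 through the outerCC alone, so the direction of these calls was built into their being tested. None of these genes passed the fit on MT1A in outerCCs, where the 5 tested had a median slope of 0.05 (all genes 0.03).

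For the antioxidant list, 5 of 31 genes were matched, and 1 was higher and 2 were lower in oocytes. SQSTM1, an autophagy receptor induced by oxidative stress, was higher by 1.27 (limma, adjusted p = 2.8e-05). SOD3, the extracellular superoxide dismutase, was at 0.570 to 44.6 FPKM in outerCCs and at 0 in 12 of 16 oocytes, a difference of -2.45 (limma, adjusted p = 4.8e-10). SOD3 passed the filter through the outerCC alone, which fixed the side of that call. The highest SOD3 value was in COC 192, where the next was 9.03 FPKM. Its slope on MT1A was 0.29 ± 0.12 and did not pass (limma, adjusted p = 0.9). The slopes of the 5 genes tested had a median of 0.05 (all genes 0.03).

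For the glucocorticoid list, 6 of 13 genes were matched, and 3 were higher and 2 lower in oocytes. HSD11B2, which inactivates cortisol, was at 2.04 to 63.7 FPKM in oocytes and above 0 in 2 of 16 outerCCs, a difference of 3.14 (limma, adjusted p = 2.5e-10). Those 2 were the outerCCs of COCs 190 (7.03 FPKM) and 191 (3.31 FPKM), the 2 with the highest sums of oocyte markers. FKBP5 and ZBTB16, both induced by glucocorticoids, were higher in oocytes by 0.99 and 2.25 (limma, adjusted p = 0.00066 and 3.3e-12). TSC22D3, another induced gene, differed by -1.25 (limma, adjusted p = 5.4e-06). HSD11B2 and ZBTB16 passed the filter through the oocyte alone and TSC22D3 through the outerCC alone, so their directions were built in as well. On MT1A in outerCCs, 3 genes were tested and none passed, with a median slope of 0.11 (all genes 0.03).

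For heat shock and immediate early genes, 8 of 23 were matched, and 0 were higher and 5 lower in oocytes. FOS and JUN, subunits of the AP-1 factor, were at medians of 1616 and 347 FPKM in outerCCs, with differences of -8.67 and -6.82 (limma, adjusted p = 1.1e-17 and 4.4e-20). IER3, an early response gene, differed by -4.95 (limma, adjusted p = 3.6e-19). All 8 had a positive slope on MT1A in outerCCs, with a median of 0.16 (all genes 0.03), but none passed. The share of positive slopes over all genes was not counted, so the count of 8 is a description only. HSPA1A, the inducible heat shock protein, was at 427 FPKM in COC 192 and at 9.91 to 62.3 FPKM in the other outerCCs, and its slope was 0.34 ± 0.12 (limma, adjusted p = 0.63).

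Of the hypoxia list 5 of 17 genes were matched, and 1 was higher and 4 lower in oocytes. ALDOA, a glycolytic enzyme, was at 62.2 to 1586 FPKM in outerCCs and 1.31 to 61.7 FPKM in oocytes, a difference of -5.36 (limma, adjusted p = 2.4e-14). Of the list of follicle growth and cumulus expansion 10 of 31 were matched, and 2 were higher and 8 lower. HAS2, the hyaluronan synthase of the expanding cumulus, was higher in oocytes by 3.40 (limma, adjusted p = 1.6e-14), and CYP11A1, which starts steroid synthesis, differed by -6.45 (limma, adjusted p = 2.8e-16). HAS2 passed the filter through the oocyte alone and CYP11A1 through the cumulus samples, which set these directions. On MT1A in outerCCs no member of either passed. The median slopes were -0.15 for the hypoxia genes and -0.20 for the follicle genes (all genes 0.03). A positive slope was found in 1 of 5 and 1 of 8, and the share over all genes was not counted. INHBA, a subunit of activin and inhibin, had the steepest negative slope of these, -0.55 ± 0.16 (limma, adjusted p = 0.33). Between innerCCs and outerCCs of COCs 185 to 192, 0 members of these lists passed the FDR with limma. Of all genes tested there, 1.53% were called lower and 0 higher in innerCCs, so this count says little about the lists.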

How the data were processed

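The oocyte, innerCC and outerCC of 16 COCs gave 48 libraries. According to the study's methods and the submitters' processing notes, the authors mapped the reads with STAR 2.5.2 (genome build UMD3.1), discarded reads without a unique position, took out duplicates by means of Picard 2.5, and obtained FPKM per Ensembl gene from Cufflinks 2.2.1. The deposited FPKM tables hold no counts, so depth is unknown and no counting interval was computed. HTSeq 0.6.1 is also named, but counts were not analysed here. Symbols came from the study's gene lists, which name 4165 of 24616 genes (33.5% of the detected ones). Within a sample type each library is a separate COC. The main comparisons of sample types took the libraries as independent, so the libraries of a COC were not paired there. Their p-values rest on the spread between COCs within a type.

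MT1A and the gene lists were chosen with earlier results of these data known. Pairs of sample types were compared in 32 libraries with limma 3.58.1 (R 4.3.3) on log2(FPKM + 1) for the 12428 genes over 0.5 FPKM in 8 libraries of a type, at a Benjamini-Hochberg FDR under 0.01. MT1A itself was left out of the tests. The study's count tests could not be used on FPKM, and its collection batch was not fitted because the labels do not give it. A limma slope on MT1A was fitted over 16 outerCCs, and over the 8 innerCCs of COCs 185 to 192. Fits were tested on simulated data.

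Named genes are MT1A, all matched metallothioneins, up to 3 members with the largest called change in each direction per list, and the 5 genes with the highest and lowest rho with MT1A, ties kept. A called gene of the fit on MT1A is not reported here. That equal numbers mark 1 COC is given by the labels and the design text. Their deviations from the group means correlated on average at 0.0102 (oocyte and outerCC), 0.154 (innerCC and outerCC) and 0.0480 (oocyte and innerCC), and the COC was also fitted as a block. Alternatives were the pseudocount, the filter, scaling, ranks, covariates, COCs 185 to 192 alone, and leaving out each COC. The analyses without COC 191 or 192 of likeness, markers, MT3 and MT4 were chosen after seeing the data. Python 3.11.15, pandas 2.3.3 and matplotlib 3.10.9 were used for summaries and figures.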

Additional observations from a re-analysis of the deposited data

How the results depend on the processing

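With the COC number as a replicate block, 5392 genes were higher and 4234 lower in oocytes than in outerCCs, 4 higher and 9703 lower in innerCCs than in outerCCs (0 and 9619 without the block), and 7919 higher and 553 lower in oocytes than in innerCCs, and no call of a metallothionein changed. Genes higher in innerCCs than in outerCCs numbered 15 with 75th percentile scaling, and genes lower numbered 4 with the number of genes as a covariate and 190 in COCs 185 to 192. Genes lower in oocytes than in innerCCs (563) numbered 1109 with 75th percentile scaling, 2830 with the covariate and 1747 in COCs 185 to 192. The 8 genes with a positive slope on MT1A became 1 with a pseudocount of 0.1, 0 without the filter, which tested 18971 genes, 0 with ranks of MT1A, 15 with 75th percentile scaling, 10 with the covariate and 13 with a term for COCs 176 to 184. The mean of MT1A in innerCCs was 12.5 FPKM with that scaling (4.55 FPKM without). Leaving out 1 COC gave 0 to 3 genes higher in innerCCs than in outerCCs, 366 to 640 lower in oocytes than in innerCCs and 0 to 21 with a positive slope on MT1A. Uncalled differences near 0 changed sign: that of MT3 between innerCCs and outerCCs was 0.65 with the covariate and -0.33 to 0.31 when 1 COC was left out, and that of ENSBTAG00000038706 between oocytes and innerCCs was 0.032 with a pseudocount of 0.1 and -0.25 to 0.055. Other than where stated, the causes were not tested. The differences of MT3, MT4 and ENSBTAG00000001595 between oocytes and outerCCs kept direction and call in every alternative run.

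The unknown depth limits what a 0 of MT1A means, above all in the innerCCs of COCs 176 to 184. Each COC gave 1 library per type, so technical error cannot be separated from differences between COCs, and the value of COC 192 has no repeat. Read sharing between metallothionein copies could not be checked in FPKM.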

Other observations

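MT1A and MT4 were both above 0 in 4 libraries. The FPKM of MT4 over that of MT1A was 1.0 in the oocyte of COC 181 (2.87 FPKM of each) and 5.0 in that of COC 192. It was 24.5 in the oocyte of COC 191 and 1.2 in the outerCC of COC 191. The fragment numbers behind these values are not given in the files.

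MT3 and MT4 were weakly related across oocytes (Spearman's rho 0.51, Pearson's r 0.23 on log2(FPKM + 1), n = 16, given as a description). MT3 was at 88.1 to 431 FPKM in the oocytes of COCs 176 to 184 and at 220 to 586 FPKM in those of COCs 185 to 192, so the ranges overlapped. HAS2 was at 8.09 to 26.0 FPKM in oocytes and at 11.7 FPKM in the outerCC of COC 192, the library with the highest MT1A, with at most 2.04 FPKM in the other outerCCs.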
